A study of Mus musculus with 12 samples.

Results

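The 9 genes described here are transcription factors and cofactors of the skeletal muscle lineage: *Myod1*, *Myog*, *Myf5*, *Myf6*, *Pax3*, *Pax7*, *Mef2c*, *Six4* and *Eya1*. They were chosen by name for their known roles, with earlier results of these data known, out of 38898 genes measured by RNA-seq in 12 dissected Rd76-9 tumors. Rd76-9 is a mouse embryonal rhabdomyosarcoma (RMS) cell line that was derived from a tumor induced by methylcholanthrene, so all tumors came from 1 cell line. The cells were injected into the flank of young adult WT mice of strain C57/Bl6J, and the tumors were collected on day 16, each from 1 mouse. Control tumors (m1, m2 and m3) received saline and empty folic acid nanoparticles. VCR tumors (m4, m5 and m6) received vincristine at 0.25 mg/kg once a week, a drug that blocks the assembly of microtubules. RCM1-NPFA tumors (m7, m8 and m9) received 8 µg of RCM1, an inhibitor of FOXM1, in folic acid nanoparticles at each injection every other day. VCR + RCM1-NPFA tumors (m10, m11 and m12) received both. A treatment label of the Control tumors also names RCM1, and their titles were used to place them in their group.

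In the embryo, the paired box factors Pax3 and Pax7 act upstream of the myogenic basic helix-loop-helix (bHLH) factors. Myf5 and Myod1 commit cells to the muscle lineage, Myog drives the differentiation of myoblasts into fibers, and Myf6 (also named MRF4) is the bHLH factor of late differentiation and of adult muscle. These bHLH factors pair with E proteins and bind the E-box, while Mef2c binds the MEF2 site and Six4, with its coactivator Eya1, binds the MEF3 site. MYOD1, myogenin and desmin are the stains by which pathologists recognize RMS.

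The promoters of *Myog* and *Myf5* are shown because *Myog* was called after VCR from at most 2 counts in a Control tumor, and *Myf5* was the most abundant member in every tumor. Each sequence is the strand of the gene, from 250 bases before to 50 bases after a RefSeq start, on GRCm38.p6. Capitals mark matches on either strand to the E-box (CANNTG), the MEF2 site (CTANNNNTA) or the MEF3 site (TCAGGTTNC). The windows lie at chr1:134289754-134290053 (plus strand) for *Myog* and at chr10:107486085-107486384 (minus strand) for *Myf5*.
*Myog*: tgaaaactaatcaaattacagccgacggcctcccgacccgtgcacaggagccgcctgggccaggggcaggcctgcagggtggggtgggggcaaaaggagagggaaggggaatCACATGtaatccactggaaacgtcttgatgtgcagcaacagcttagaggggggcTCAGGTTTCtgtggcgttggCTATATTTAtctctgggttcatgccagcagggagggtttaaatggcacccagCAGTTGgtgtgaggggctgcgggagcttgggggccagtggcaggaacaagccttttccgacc
*Myf5*: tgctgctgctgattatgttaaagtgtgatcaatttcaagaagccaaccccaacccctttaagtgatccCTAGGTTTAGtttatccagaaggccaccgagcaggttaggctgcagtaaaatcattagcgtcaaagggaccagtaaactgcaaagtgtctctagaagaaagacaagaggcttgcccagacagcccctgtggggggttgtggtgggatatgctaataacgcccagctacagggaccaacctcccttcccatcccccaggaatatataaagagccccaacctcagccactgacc
The *Myog* window held all 3 motifs: E-boxes that began 138 and 12 bases before the start, a MEF3 match 84 bases before it and a MEF2 match 64 bases before it. The *Myf5* window held 2 overlapping MEF2 matches, 1 on each strand, and no E-box or MEF3 match. Of 32851 RefSeq promoter windows of the same length, 72.3% held an E-box, 21.0% a MEF2 match and 1.21% a MEF3 match. RefSeq windows were at hand for 5 members, in 8 windows in all. One of the windows of *Six4* held a MEF3 match 99 bases before its start. A match is a description of the letters and not a binding site.

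The libraries held between 29342195 and 32108055 estimated counts, and 17602 genes, among them 8 of the 9 members, had enough counts to be tested. *Pax7* did not, and *Myod1* and *Myog* passed that filter only through treated tumors. The main test was the quasi-likelihood test of edgeR, and a gene was called when its p-value, adjusted over all tested genes by Benjamini-Hochberg, was under 0.1. CPM are counts scaled to TMM-normalized library sizes, and TPM are the deposited values per transcript length. The labels name no batch. By RNA of adult muscle fibers m9 and m5 stood apart, with 2.16% and 1.41% of their counts on 22 fiber genes, against 0.0318% to 0.0466% in Control tumors, and results that rest on them are given with and without them. The mice are separate animals, but nothing says how each tumor was dissected, so that p-values measure the spread between these tumors.

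By TPM, which allows levels of different genes to be compared, *Myf5* was the most abundant member at 47.0 ± 6.60 TPM (SD, n = 12), and it was above *Six4* in 12 of 12 tumors. *Six4* (9.85 ± 1.74 TPM) and *Eya1* (9.65 ± 1.40 TPM) could not be ranked, since *Six4* was the higher in 4 of 12 tumors only. *Mef2c* followed at 6.25 ± 2.83 TPM and *Myf6* at 5.37 ± 6.33 TPM, an SD larger than its mean. *Pax3* (1.18 ± 0.254 TPM), *Myog* (0.918 ± 0.870 TPM) and *Myod1* (0.780 ± 0.893 TPM) did not separate over all 12 tumors, whose groups differ, and *Pax7* was last at 0.0225 ± 0.0184 TPM. In Control tumors alone, *Myf5* was at 52.4 ± 7.35 TPM (SD, n = 3), *Six4* at 11.4 ± 1.00, *Eya1* at 10.8 ± 2.14, *Mef2c* at 4.70 ± 1.07, *Pax3* at 1.41 ± 0.245 and *Myf6* at 0.569 ± 0.101 TPM. There *Pax3* lay above *Myog* at 0.0380 ± 0.0384, *Pax7* at 0.0146 ± 0.0129 and *Myod1* at 0.0102 ± 0.0177 TPM. Of the diagnostic genes of RMS, *Myod1* had at most 1 and *Myog* at most 2 estimated counts in a Control tumor, and *Des*, which encodes desmin, stood at 5.37 TPM. By RNA, the Control tumors thus held *Myf5* and some *Des* but almost no *Myod1* or *Myog*. The near absence of *Myod1* and *Myog* goes against the usual markers of RMS, but those are protein stains, and the data used here are RNA only.

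**Figure D1:**
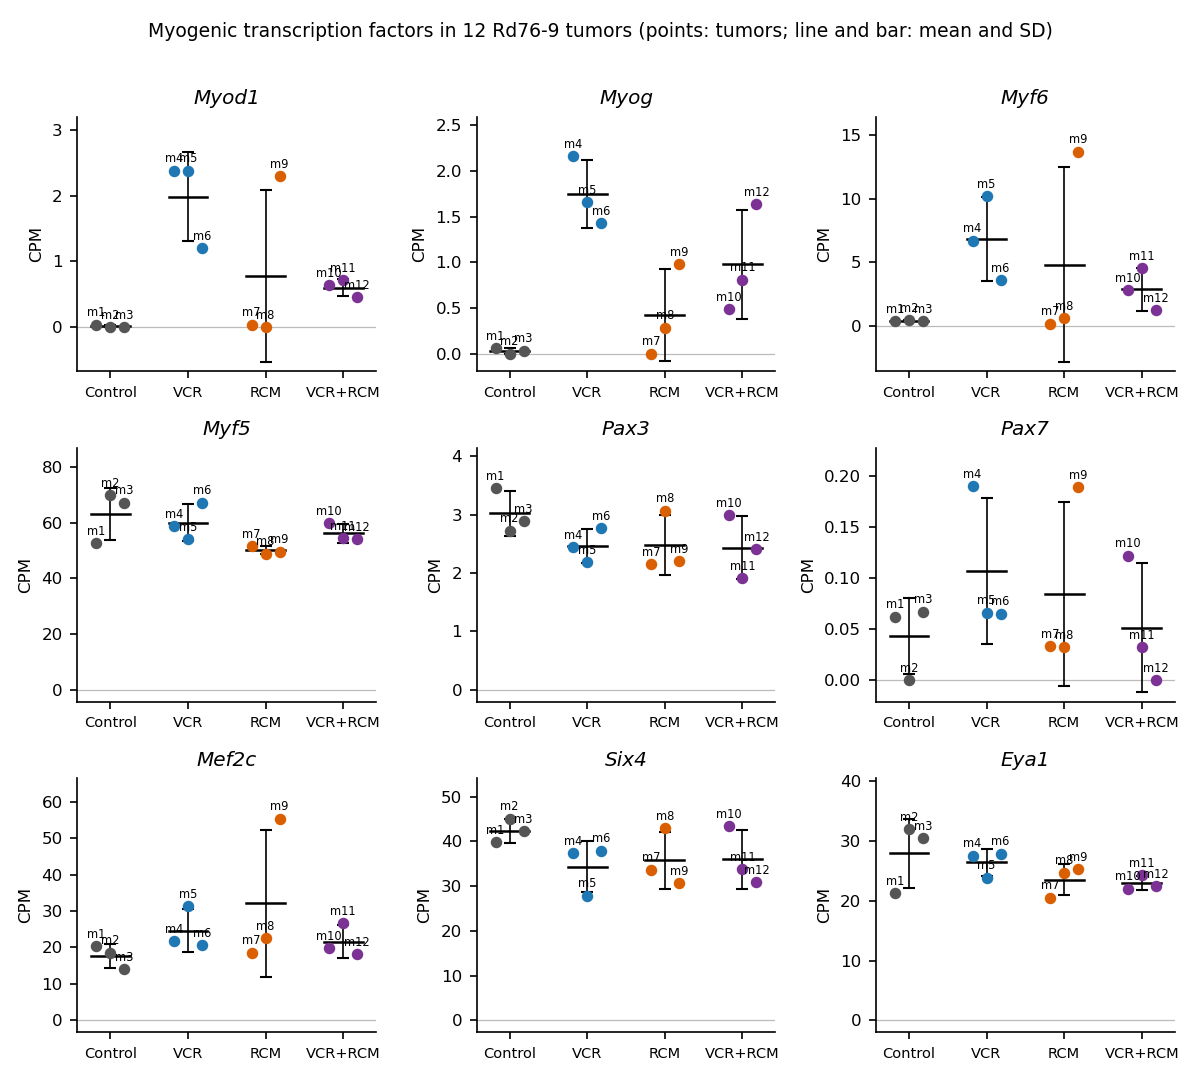
CPM of each of the 9 members in each tumor (points, m1 to m12), by group, with the mean and SD of 3 tumors (line and bar); RCM stands for RCM1-NPFA, and each panel has its own scale. *Myod1*, *Myog* and *Myf6* were higher in every VCR and VCR + RCM1-NPFA tumor than in every Control tumor, and among RCM1-NPFA tumors m9 stood apart, whereas *Myf5* stayed between 48.9 and 69.9 CPM.

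The bHLH factors fell into 2 patterns. *Myod1*, *Myog* and *Myf6* were higher in VCR and VCR + RCM1-NPFA tumors than in Control tumors without overlap, and in RCM1-NPFA tumors they were high mostly in m9. *Myf5* remained abundant in all groups. The summed CPM of 22 genes of adult muscle fibers moved with the first pattern, from 313.1 to 454.7 in Control tumors to 2236 to 14620 after VCR, and its part in these results was not tested. In bulk tumors, fewer cells of a type and less RNA per cell cannot be told apart. Between VCR and Control tumors, 2 members were called, *Myod1* and *Myog*, both higher, where 5.72% of all tested genes were called (2.90% higher and 2.82% lower). Since both were tested only because treated tumors had counts, their number is not read against that share. No member was called in the comparison of RCM1-NPFA or VCR + RCM1-NPFA with Control, of the combination with either drug, or in the interaction of the drugs, and edgeR called 0% of all tested genes in each. In these 5 comparisons p-values under 0.05 before adjustment were found for 9.78%, 7.31%, 5.26% (against VCR), 2.07% (against RCM1-NPFA) and 13.8% of tested genes, respectively. With DESeq2 the share called was 15.0% for VCR, 1.58% for RCM1-NPFA and 0.393% for the combination, each against Control, 0.256% for the combination against VCR, 0% for it against RCM1-NPFA and 2.73% for the interaction. The comparisons with Control share the same 3 Control tumors and are given side by side.

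*Myod1*, on chromosome 7 (chr7:46376474-46379092, plus strand), encodes the factor that can convert fibroblasts to muscle cells. Its estimated counts were 1, 0 and 0 in Control tumors, 75, 72 and 37 after VCR, 1, 0 and 73 after RCM1-NPFA, and 21, 22 and 14 after the combination. Every VCR and combination tumor was above every Control tumor, while m7 and m8 were at the Control level and m9 as high as the VCR tumors. The ratio of summed counts to Control, scaled for library size, was 183 for VCR (95% exact interval 32.4 to 7260), 72.9 for RCM1-NPFA (12.7 to 2920), of which m9 gave 73 of 74 counts, and 55.2 for the combination (9.51 to 2220). These intervals cover counting error only, and the Control sum was 1 count. The fitted log2 fold change, whose size depends on the prior count of the fit, was 7.07 for VCR (standard error 1.75, edgeR adjusted p = 0.0819). It was 5.72 for RCM1-NPFA (adjusted p = 0.421) and 5.34 for the combination (adjusted p = 0.666). With all tumors, DESeq2 gave *Myod1* no adjusted p-value in any of the 6 comparisons.

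*Myog* (chr1:134290004-134292548, plus strand), which encodes myogenin, had 2, 0 and 1 estimated counts in Control tumors. It had 68, 50 and 44 after VCR, 0, 9 and 31 after RCM1-NPFA, and 16, 25 and 51 after the combination. Again no VCR or combination tumor overlapped the Control tumors, and m7 had no count. The ratio of summed counts to Control was 53.7 for VCR (95% exact interval 18.0 to 263), 13.1 for RCM1-NPFA (4.18 to 66.4) and 29.7 for the combination (9.84 to 147), over a Control sum of 3 counts. The fitted log2 fold change was 5.58 for VCR (standard error 1.12, edgeR adjusted p = 0.0693), 3.55 for RCM1-NPFA (adjusted p = 0.433) and 4.74 for the combination (adjusted p = 0.666). DESeq2, run as an alternative, called *Myog* also in the combination (adjusted p = 0.0294).

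*Myf6*, the factor of adult muscle, had 12, 13 and 10 estimated counts in Control tumors, 211, 309 and 110 after VCR, 5, 18 and 436 after RCM1-NPFA, and 92, 141 and 38 after the combination. It was therefore detected in every Control tumor, and the highest treated tumor, m9, was in the group whose lowest tumor, m7, fell below all Control tumors. After VCR its log2 fold change was 4.15 (standard error 1.27, edgeR adjusted p = 0.105), just outside the threshold. The value was 3.65 for RCM1-NPFA (standard error 1.26, adjusted p = 0.433) and 2.90 for the combination (standard error 1.25, adjusted p = 0.682). Without m9 the difference of RCM1-NPFA from Control was -0.03, so that this value came from 1 tumor. DESeq2 put *Myf6* past the threshold for VCR (adjusted p = 0.0146).

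*Myf5* (chr10:107482908-107486927) and *Myf6* (chr10:107492848-107494723) are neighbors on the minus strand, 5920 bases apart, yet their values differed across the tumors. *Myf5* had 52.6, 69.9 and 67.2 CPM in Control tumors, 58.8, 54.1 and 67.2 after VCR, 51.7, 48.9 and 49.6 after RCM1-NPFA, and 59.9, 54.4 and 54.2 after the combination. Its highest tumor was 1.43 times its lowest, against 82.9 times for *Myf6*. Expressed as a percentage of the TPM of *Myf5*, *Myf6* was between 0.891% and 1.27% in Control tumors, between 9.52% and 33.4% after VCR, and 49.5% in m9. For *Myf5* the log2 fold change was -0.07 for VCR (standard error 0.11, adjusted p = 0.729), -0.34 for RCM1-NPFA (standard error 0.11, adjusted p = 0.418) and -0.17 for the combination (standard error 0.11, adjusted p = 0.742). All 3 RCM1-NPFA tumors were below all Control tumors, the one member with no overlap there, where 5.86% of tested genes were lower and 5.56% higher without overlap.

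Without overlap with Control tumors, 4 members were higher and 1 was lower after VCR, where 13.5% of tested genes were higher and 10.9% lower in this way. The higher members were *Myod1*, *Myog*, *Myf6* and *Mef2c*, and the lower one was *Six4*. After the combination *Myod1*, *Myog* and *Myf6*, 3 members, were higher and 0 lower, against 7.10% and 5.53% of tested genes. Since *Myod1* and *Myog* were tested only because treated tumors had counts, the numbers of higher members are not read against these shares. With 3 tumors against 3, the two-sided exact permutation test of log2 CPM gave p = 0.1 for each of these, the smallest value it can give.

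**Figure D2:**
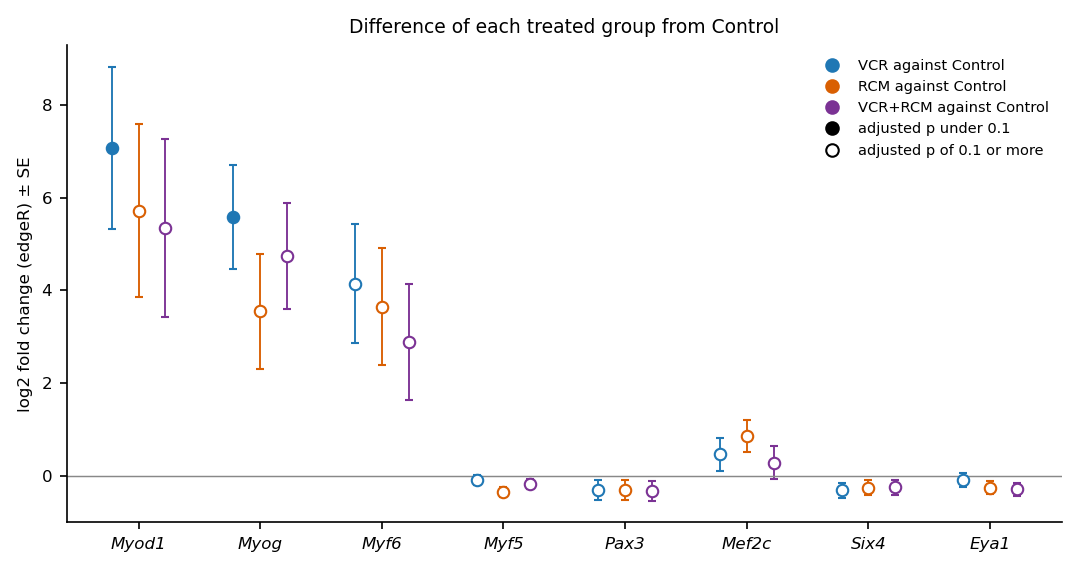
Log2 fold change of the 8 tested members (points) with standard error (bars) in each treated group against Control, from edgeR; filled points had an adjusted p under 0.1. Only *Myod1* and *Myog* in VCR tumors are filled, and the other members of all comparisons lie on open points, those of *Myf5*, *Pax3*, *Six4* and *Eya1* between -0.34 and -0.07. The sizes for *Myod1* and *Myog*, and the bars calculated from them, depend on the prior count of the fit.

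Of the paired box factors, *Pax3* (chr1:78101267-78197136, minus strand) had between 1.91 and 3.46 CPM in the 12 tumors, with a median of 2.58. Its mean was 3.02 ± 0.385 CPM (SD, n = 3) in Control tumors, 2.46 ± 0.290 after VCR, 2.47 ± 0.513 after RCM1-NPFA and 2.43 ± 0.538 after the combination. The log2 fold change from Control was -0.30, -0.29 and -0.31, respectively, each with a standard error of 0.22 and an edgeR adjusted p of 0.451, 0.713 and 0.766. *Pax7*, the marker of satellite cells, the stem cells of adult muscle, had between 0 and 6 estimated counts per tumor, and the ratio of its summed counts in VCR to Control tumors was 2.48 (95% exact interval 0.716 to 10.9). No difference in *Pax7* was detectable at this depth.

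Of the cofactors, *Six4* (chr12:73099609-73114031, minus strand), a homeodomain factor, had 39.8, 45.1 and 42.3 CPM in Control tumors and 37.3, 27.9 and 38.0 after VCR, which did not overlap. The range was 30.7 to 42.9 CPM after RCM1-NPFA and 30.8 to 43.4 after the combination, and both overlapped the Control tumors. In edgeR the log2 fold change was -0.30 for VCR (standard error 0.16, adjusted p = 0.293), -0.25 for RCM1-NPFA and -0.24 for the combination, none of them called. *Six4* overlaps *Mnat1* on the other strand, and the kit is named as stranded while the libraries are described as non-stranded, which leaves reads of the overlap uncertain. *Eya1* (chr1:14168953-14311035, minus strand), a phosphatase and coactivator of Six4 and its relatives, had 27.9 ± 5.83 CPM (SD, n = 3) in Control tumors. It had 26.4 ± 2.25 after VCR, 23.5 ± 2.60 after RCM1-NPFA and 22.9 ± 1.19 after the combination, with log2 fold changes of -0.08, -0.25 and -0.28 and adjusted p-values of 0.792, 0.618 and 0.697 in edgeR.

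*Mef2c* (chr13:83504017-83667079, plus strand), a MADS-box factor that works with the myogenic bHLH factors and is also used in other tissues, had 20.3, 18.6 and 14.1 CPM in Control tumors. It had 21.8, 31.3 and 20.5 after VCR, 18.5, 22.5 and 55.4 after RCM1-NPFA, and 19.8, 26.8 and 18.2 after the combination. The VCR tumors lay just above the Control tumors, and m9 was far above all others. The log2 fold change was 0.47 for VCR (standard error 0.35, edgeR adjusted p = 0.460), 0.86 for RCM1-NPFA (standard error 0.35, adjusted p = 0.460; 0.22 without m9) and 0.29 for the combination (standard error 0.35, adjusted p = 0.871).

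Kallisto divided the *Mef2c* counts over 34 RefSeq transcripts, and 2 of them, NM_001170537.1 and NM_025282.3, were read in 5 tumors only. They were singled out after their values were seen. Together they had 455 estimated counts in m5, 25 in m6, 805 in m9, 95 in m10 and 207 in m11, and 0 in the other 7 tumors. This was 48.1% of *Mef2c* in m5, 45.8% in m9, 25.1% in m11, 14.6% in m10 and 4.02% in m6. The rest of *Mef2c* had between 420 and 954 estimated counts per tumor. The 2 transcripts differ from each other in the third coding exon, which is chr13:83625265-83625408 in the first (144 bases) and chr13:83625470-83625607 in the second (138 bases), and in the start of the last one. Shares between so many similar transcripts are estimates and have no replicate error.

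**Figure D3:**
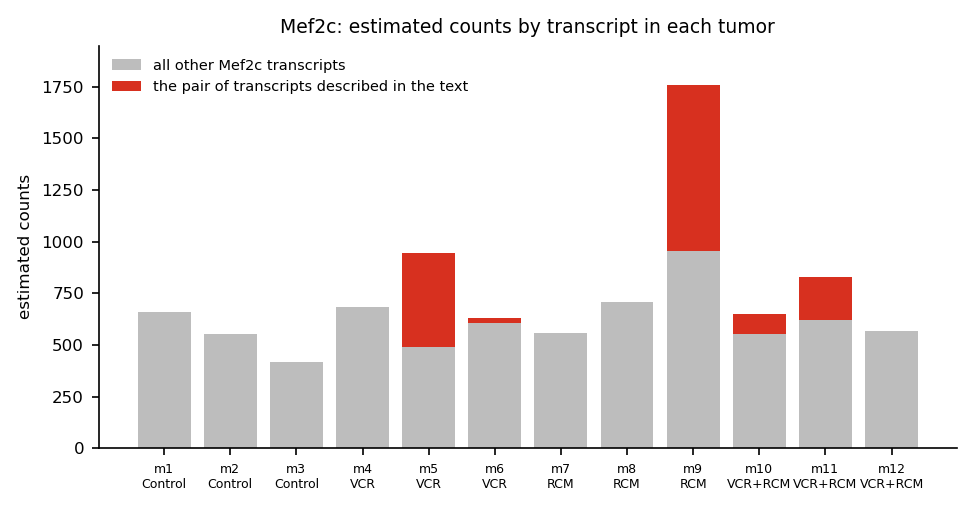
Estimated counts of *Mef2c* in each tumor (bars), divided into the pair NM_001170537.1 and NM_025282.3 (red) and all other transcripts (gray). The pair had 805 counts in m9 and 455 in m5, and 0 in all Control tumors and in m4, m7, m8 and m12.

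Genes of adult muscle fibers differed between the same tumors. The summed CPM of 22 fiber genes was 313.1 to 454.7 in Control tumors, 2236 to 14620 after VCR, 413.8 to 21800 after RCM1-NPFA and 830.2 to 5656 after the combination. All 22 were higher without overlap after VCR and after the combination, and 8 after RCM1-NPFA, and edgeR called 7 of them after VCR and 0 in the other comparisons. Of all tested genes, 13.5% after VCR, 7.10% after the combination and 5.56% after RCM1-NPFA were higher in this way. After VCR edgeR called 2.90% of them higher. The median log2 fold change of the fiber genes was 6.90 for VCR, 6.78 for RCM1-NPFA and 5.40 for the combination, against 0.0016 to 0.0028 over all tested genes. Without m9 it was 6.89, 1.10 and 5.39, with 22, 0 and 2 genes called. Of all tested genes 7.82%, 0% and 0.245% were called then. Without m5 it was 5.75 for VCR, with 0 called, where edgeR called 0 of 17995 tested genes. Without m5 and m9 together, a choice made after seeing the data, 20, 0 and 16 were called, against 1.42%, 0% and 0.772% of tested genes. Fiber genes with few Control counts were tested only through treated tumors, so these numbers are not read against the shares. In Control tumors most of the sum was *Eno3*, a muscle enolase, with 8843, 7654 and 8399 estimated counts. *Myh4*, a fast myosin of adult fibers and the fiber gene with the highest mean CPM, had 732, 0 and 0 counts there, and *Acta1*, skeletal actin, 593, 38 and 12. Their part in the results for *Myod1*, *Myog*, *Myf6* and *Mef2c* was not tested.

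**Figure D4:**
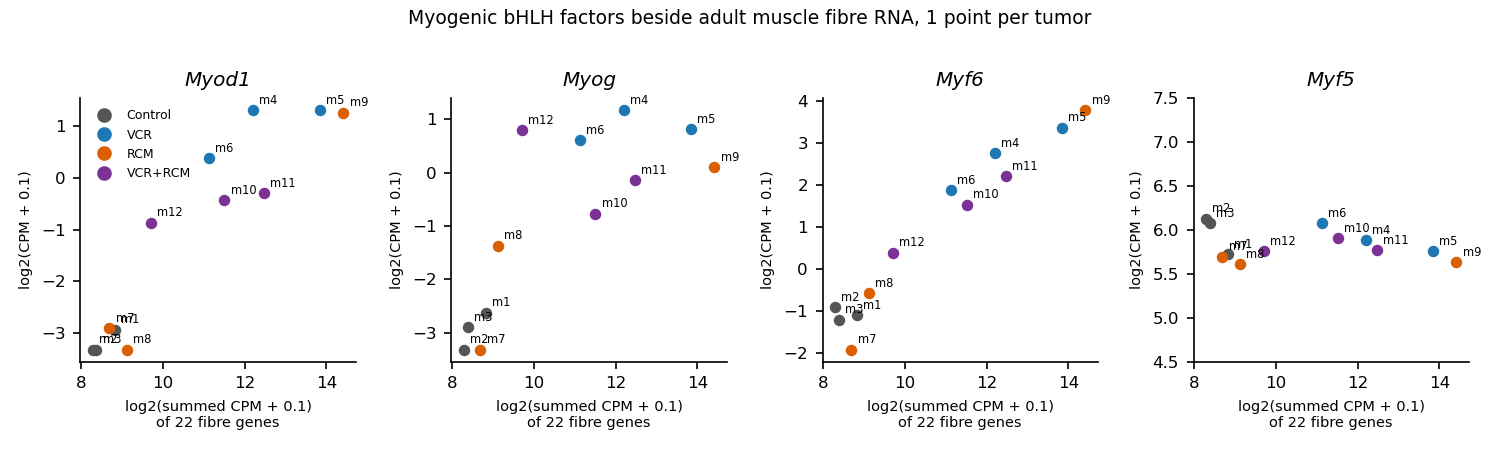
Log2(CPM + 0.1) of *Myod1*, *Myog*, *Myf6* and *Myf5* in each tumor (points, colored by group) against the log2 of the summed CPM of 22 fiber genes; the vertical scales differ between panels. *Myf6* was highest in m9 and m5, the tumors with the most fiber RNA, whereas *Myog* was highest in m4 and nearly equal in m5 and m12, and m12 had only 830.2 CPM of fiber genes.

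The members did not follow the fiber genes in one order. *Myf6* was highest in m9, then m5 and m4, and the 2 tumors at the top are those with the most fiber RNA. *Myod1* was nearly equal in m4, m5 and m9 (2.38, 2.38 and 2.30 CPM), although the fiber sum was 4706 CPM in m4 and 21800 in m9. *Myog* was highest in m4 (2.16 CPM), m5 (1.65 CPM) and m12 (1.63 CPM), and m9, with the most fiber RNA, had 0.976 CPM. Per 10000 fiber counts, *Myog* had 0.447 in m9 and 19.7 in m12, whereas *Myf6* had between 4.0 and 16.0 in all 12 tumors. This scale counts mostly *Eno3* in Control tumors, and *Ckm* ran on it from 1.07 in m2 to 1040 in m9. In Control tumors *Myf6* had 12 counts in m1, with 374 counts of *Ckm*, the muscle creatine kinase, and 13 counts in m2, with 1 count of *Ckm*. Without m5 and m9, a choice made after seeing the data, *Myod1*, *Myog* and *Myf6* were called by edgeR both for VCR (adjusted p = 0.00545, 0.0347 and 0.0219) and for the combination (adjusted p = 0.0355, 0.0805 and 0.0605), where 1.42% and 0.772% of tested genes were called. As *Myod1* and *Myog* were tested only through treated tumors, the number of calls is not read against these shares. For RCM1-NPFA *Myod1*, *Myog* and *Myf6* were not called without m9 (log2 fold changes of 0.45, 2.03 and -0.03).

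The combination was also set against each drug. *Myod1* had 14 to 22 counts in combination tumors and 37 to 75 in VCR tumors, a log2 fold change of -1.72 (standard error 1.03, edgeR adjusted p = 0.855). *Myog* differed from VCR by -0.84 (standard error 0.73, adjusted p = 0.868) and *Myf6* by -1.26 (standard error 1.07, adjusted p = 0.867), with overlapping tumors. Against RCM1-NPFA tumors the differences were -0.38 for *Myod1*, 1.19 for *Myog* and -0.75 for *Myf6*, with standard errors of 1.06, 0.80 and 1.07 (adjusted p = 1.00 for each). Without m9 they were 4.89, 2.70 and 2.92 (edgeR adjusted p = 0.715, 1.00 and 0.849), so that the direction for *Myod1* and *Myf6* turned. Limma-voom with all tumors gave 2.29 for *Myod1* and 1.11 for *Myf6*. Without m5 and m9 DESeq2 called *Myf6* (2.94, adjusted p = 0.00168), where it called 0.576% of tested genes. *Myf5* had 54.2 to 59.9 CPM in combination and 48.9 to 51.7 in RCM1-NPFA tumors, a log2 fold change of 0.17 (standard error 0.11, adjusted p = 1.00). The interaction, the departure of the combination from the sum of both single-drug differences on the log2 scale, was -7.44 for *Myod1*, -4.39 for *Myog* and -4.90 for *Myf6* (standard errors 2.15, 1.45 and 1.65), each with an adjusted p of 0.293 in edgeR. For *Myog* DESeq2 gave an interaction of -4.54 with an adjusted p of 0.0871. Without m9 the interactions were -2.17, -2.87 and -1.22 (edgeR adjusted p = 0.675, 0.507 and 0.606).

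Other genes of the myogenic network were taken from lists written with earlier results of these data known. None of the relatives of *Mef2c*, *Six4* and *Eya1* was called in any comparison with Control (8 of 11 tested). The largest mean differences among them were those of *Mef2a*, at -0.21 for VCR (standard error 0.09, adjusted p = 0.212), *Eya4* at -0.26 and *Six2* at 0.27. None of the 3 E proteins, the partners of the bHLH factors, was called. *Tcf12* was at -0.36 for VCR (standard error 0.11, adjusted p = 0.111), *Tcf4* at -0.27 and *Tcf3* at -0.02. Of 18 inhibitors of the bHLH factors, 17 were tested and 1 was called, *Hes1*, a repressor of the Notch pathway, which rose after VCR by a log2 fold change of 0.47 (standard error 0.12, adjusted p = 0.0868). Over all tested genes 5.72% were called after VCR, so 1 call of 17 is not read as a trait of the inhibitors. *Id1*, which captures E proteins, was at 0.74 (adjusted p = 0.128) and *Mdfi* at 0.70 (adjusted p = 0.166). The medians of these 3 lists for VCR were -0.01, -0.27 and 0.03.

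Of 24 target genes of the myogenic factors, 22 were tested, and 4 rose after VCR, where 2.90% of all tested genes did. Since some of the 4 were tested only because treated tumors had counts, their number is not read against that share. The list had a median log2 fold change of 0.54 for VCR, 0.23 for RCM1-NPFA and 0.15 for the combination, and 0 genes were called in the last 2. Without m9 edgeR called 7 of its genes for VCR, 0 for RCM1-NPFA (median 0.11) and 3 for the combination. Without m5 it called 0 for VCR, where it called 0 of all tested genes. Without m5 and m9 together it called 6 for VCR, 0 for RCM1-NPFA and 3 for the combination. The shares of all tested genes in these fits are given above with the fiber genes. The 4 genes were *Des*, *Cav3*, the caveolin of muscle, *Rbm24*, an RNA-binding protein of muscle splicing, and *Myl4*, a myosin light chain of embryonic muscle and atrium. *Des* went from 9.74 ± 1.85 CPM (SD, n = 3) in Control to 254 ± 155 in VCR tumors, a log2 fold change of 4.70 (standard error 1.29, adjusted p = 0.0908). *Myl4* went from 3.52 ± 0.221 to 6.38 ± 0.663 CPM (log2 fold change 0.86, standard error 0.15, adjusted p = 0.0651). *Cav3* had at most 1 and *Rbm24* at most 5 counts in a Control tumor, and both were tested only because treated tumors had counts. Adult fibers express both, as they do *Des*. *Itga7*, an integrin of myoblasts and fibers, had 432 ± 119 CPM in Control and 394 ± 10.6 in VCR tumors (adjusted p = 0.674). Genes chosen after their values were seen showed that targets differed widely in Control tumors. Of the subunits of the acetylcholine receptor of muscle, *Chrnb1* and *Chrnd* had 126 and 60.5 TPM there, and *Chrna1* and *Chrng* 1.10 and 0.395 TPM. *Cdh15*, the cadherin of myoblasts, had 92.0 TPM.

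Markers of the other cell types that the tumors could hold were read in the same way. After VCR, 2 of 10 endothelial genes, *Egfl7* (log2 fold change 0.83, adjusted p = 0.0761) and *Tie1* (0.81, adjusted p = 0.0763), rose, and 1 of 6 tested satellite cell genes, *Vcam1*, fell by 0.49 on the log2 scale, with an adjusted p just inside the threshold. Over all tested genes 2.90% were called higher and 2.82% lower. *Pecam1* and *Cdh5* were not called (adjusted p = 0.114 and 0.185), and *Vwf* alone of the 10 went down (-0.66, adjusted p = 0.167). Without m5 no endothelial or satellite cell gene was called, and neither was any other tested gene. The satellite cell list, which shares *Pax7* with the members and *Itga7* and *Cdh15* with the targets, summed to 1014 to 1368 CPM in Control and 1042 to 1096 CPM in VCR tumors. No leukocyte, adipocyte, keratinocyte, or melanocyte and Schwann cell gene was called, and no marker gene was called after RCM1-NPFA or the combination. Among the markers with the highest mean CPM were *Cdh5* and *Pecam1* (endothelial), *Cd74* and *Csf1r* (leukocyte), *Mitf* (melanocyte and Schwann cell), *Krt10* and *Trp63* (keratinocyte) and *Fabp4* and *Lipe* (adipocyte). The summed CPM in Control tumors was 164.6 to 230.9 for endothelial, 979.2 to 2297 for leukocyte, 11.2 to 16.9 for melanocyte and Schwann cell, 5.48 to 6.69 for keratinocyte and 24.7 to 156.3 for adipocyte genes. After VCR it was 236.4 to 313.9, 1207 to 1420, 12.2 to 15.0, 5.17 to 6.42 and 57.3 to 115.6, so that of these 5 sums the endothelial one alone did not overlap. This was not particular to VCR, since the endothelial sum after the combination, 232.0 to 251.4, also lay above Control tumors. After RCM1-NPFA it was 227.3 to 281.2, which overlapped. The part of these cell types in the members' values was not tested.

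The tested genes whose log2(CPM + 0.1) ran most like that of a member over the 12 tumors are given as a description, since each is the highest of 17602 candidates and the tumors share their groups and their fiber RNA. For *Myf6* they were *Fitm1* (Pearson's r = 0.986), *Mylk2* (0.985) and *Art1* (0.984), and for *Mef2c* *Phkb* (0.975), *Ufsp1* (0.955) and *Map3k7cl* (0.946). For *Six4* they were *Zfp251* (0.912), *Lekr1* (0.905) and *Prdm11* (0.90), for *Pax3* *4930506C21Rik* (0.920), *Rims3* (0.882) and *Gm33148* (0.871). For *Myf5* they were *Sox5* (0.864) and *Fgf17* (0.830), and for *Eya1* *Me2* (0.847), *Phgdh* (0.834) and *Trit1* (0.833). Outside the rule, which asked for a mean of 1 CPM, and chosen after the values were seen, *Mustn1* (0.982) was most like *Myod1*, and *E130218I03Rik* (0.943) most like *Myog*.

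The calls of *Myod1* and *Myog* after VCR rested on several single tumors. With edgeR *Myog* lost its call without m2, m4, m5 or m11 (adjusted p of 0.162, 0.213, 0.280 and 0.115), where 0, 0, 0 and 1 of all tested genes were called, and *Myod1* lost it without these and without m1, m3 or m12 (adjusted p of 0.153, 0.105 and 0.110). The fitted log2 fold change for VCR stayed between 5.05 and 6.39 for *Myog* and between 6.62 and 8.95 for *Myod1* in all of these fits.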

How the data were processed

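RNA-seq was analysed for 12 Rd76-9 tumors, 3 per group. The authors prepared poly-A libraries and quantified reads with kallisto on a GRCm38 transcriptome, whose version is not given in the sources used here. Per the file headers, they deposited for each transcript an estimated count, which is not normalized and not whole, and a TPM value, scaled for length and to the same total in each tumor. No depth other than these counts was used.

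The 120299 transcripts of the tables belong to 38898 genes in RefSeq for GRCm38, over which estimated counts and TPM were summed, and counts were rounded. Genes were filtered with filterByExpr (minimum count 10), normalized by TMM and tested with edgeR 4.0.16 (R 4.3.3) in one fit of 4 groups, with 6 comparisons. Standard errors given with edgeR values were calculated back from the test, as the absolute log2 fold change over the square root of its F statistic. For single genes an exact permutation test of log2(CPM + 0.1), two-sided, was added. Intervals of count ratios are exact 95% intervals and cover counting error only. The alternatives were DESeq2 1.42.0 (size factors or Wald test), limma-voom (limma 3.58.1), other filters, an offset for effective length, only the groups compared, a stricter threshold (0.05) and fits without each tumor in turn. Each pair of tumors in a group differed by more than sampling noise (chi-squared per degree of freedom 14.6 to 86.1).

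The members and the 14 gene lists were chosen with earlier results of these data known. The text names all members, of each list of the network the 3 genes with the largest mean difference from Control and up to 4 called genes, of each marker list the 2 genes with the highest mean CPM, and for each member of at least 1 CPM the 3 genes most like it. Some genes that this rule takes are not reported here. Promoters were read from RefSeq windows of GRCm38.p6. Python 3.11.15, scipy 1.17.1, pandas 2.3.3 and matplotlib 3.10.9 were used.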

Additional observations from a re-analysis of the deposited data

How the results depend on the processing

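For VCR against Control, 2 members were called, against 1 (*Myf6*) when only genes with a mean of at least 50 counts were tested, which leaves out *Myod1* and *Myog*, 0 at a threshold of 0.05, and 0 to 3 when single tumors were left out. For the combination against Control, 0 were called, against 1 (*Myog*) with DESeq2, 0 to 1 when single tumors were left out (*Myod1* without m9), and 3 without m5 and m9 in both edgeR and DESeq2. In these last 2 fits edgeR called 0.772% and DESeq2 1.66% of tested genes. DESeq2 also called 1 member in the interaction (*Myog*) and, without m5 and m9, 1 in the combination against RCM1-NPFA (*Myf6*). It called 2.73% and 0.576% of tested genes there, respectively. With all tumors DESeq2 gave *Myod1* no adjusted p-value, so *Myod1* could not be among its calls. Leaving out m5 and m9 together was chosen after seeing the data. When single tumors were left out, the members lower without overlap numbered 1 to 3 for VCR, 1 to 3 for RCM1-NPFA and 0 to 2 for the combination, and those higher 0 to 3 for RCM1-NPFA. A group with fewer tumors is more easily without overlap, and the shares of all tested genes were not counted in these fits. These ranges are therefore not read as a result about the members. The log2 fold change of *Eya1* for VCR ran from -0.2421 to 0.0175 (without m2) when single tumors were left out, and that of *Myf6* for RCM1-NPFA from -0.0326 (without m9) to 4.22. Without m5 and m9 the latter was -0.0345 in edgeR and -0.0420 in DESeq2. For the combination against RCM1-NPFA, *Myod1* ran from -0.9597 to 4.89 (without m9) when single tumors were left out and *Myf6* from -1.3203 to 2.92 (without m9). Limma-voom gave 2.29 and 1.11, edgeR without m5 and m9 4.89 and 2.93, and DESeq2 without them 5.20 and 2.94. The cause was not tested. For VCR, edgeR called 1006 of all tested genes, against 2285 with DESeq2, 599 with no filter, 465 with only the groups compared, 0 without m2, m4 or m5, 1 without m11, 281 without m1, 525 without m10, 243 without m12, 253 without m5 and m9, and 2012 without m6. For the combination against Control edgeR called 44 without m9 and 138 without m5 and m9. The other alternatives moved no count of called members by over 1.5 times. No paired analysis was possible because the mice carry numbers 1 to 12 that no groups share. With 0 to 3 counts in Control tumors, the depth sets only wide limits on the ratios of *Myod1* and *Myog*.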

Other observations

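Developmental muscle genes, which were chosen after their values were seen, did not all stand highest in the same tumors. *Myh3*, the myosin of embryonic and regenerating fibers, had 10, 10 and 8 estimated counts in Control tumors, 81, 11 and 27 after VCR, 4, 20 and 12 after RCM1-NPFA, and 7, 23 and 30 after the combination. Its highest tumors, m4 and m12, were among the 3 highest in *Myog*, and m5 and m9, with the most fiber RNA, had 11 and 12 counts of *Myh3*. The log2 fold change of *Myh3* for VCR was 2.05 (standard error 0.74, edgeR adjusted p = 0.145) and was not called. *Mymk*, which encodes myomaker, had 18 counts in m4, 10 in m6 and at most 3 in every other tumor. *Mymx*, which encodes myomixer, had between 0 and 10 counts, with 8 in m4, 7 in m9 and 10 in m12. Neither of these fusion genes had enough counts to be tested. By contrast, *Myh8*, the perinatal myosin, had 50 counts in both m4 and m9, and *Actc1*, the cardiac actin that is also made in embryonic muscle, had 1121 in m9 and 204 in m5, its 2 highest tumors.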
